A study of Homo sapiens with 4 samples.

Results

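The genes of MHC class I antigen presentation described here are HLA-B, HLA-C, HLA-E, B2M, TAP1, TAP2, TAPBP, PSMB8 and PSMB9. They were chosen by symbol as a fixed list of 9 among the 20363 genes of the raw count table, and all 9 passed the filter on low counts that left 14970 genes to test. They were followed across 4 DAOY libraries, a single one per condition, so that no condition has a replicate. ZNF521 cells, which overexpress the transcription co-factor ZNF521, were treated with SAG, an agonist of SMO that activates the SHH pathway, or with the vehicle DMSO, and CTL cells were treated in the same ways. DAOY is a cell line derived from a human medulloblastoma. The labels give neither the dose nor the duration of SAG. The study's vector carries ZNF521 with EGFP behind an IRES and was used in a transduced population, and the design text calls the controls WT where the paper describes a control vector. With WT controls, an effect of transduction cannot be told apart from that of ZNF521.

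Class I molecules show peptides from inside the cell to CD8 T cells. The proteasome cuts proteins into peptides, and PSMB8 and PSMB9 are the subunits that replace standard catalytic subunits to form the immunoproteasome. TAP1 and TAP2 together form the transporter that moves the peptides into the endoplasmic reticulum, where TAPBP, tapasin, holds an empty class I molecule at the transporter until a peptide binds. HLA-B and HLA-C are classical heavy chains that present peptides to T cells, HLA-E is a non-classical heavy chain that is read mainly by NKG2 receptors of natural killer cells, and B2M, beta-2 microglobulin, is the light chain that all of them share. Interferons are known inducers of most of these genes, and NLRC5 is a co-activator of their promoters.

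All members but B2M lie in the MHC region of chromosome 6 of hg38, and B2M lies on chromosome 15 from 44711358 to 44718851. HLA-B spans 31353872 to 31367067 and HLA-C 31268749 to 31272130, both on the minus strand, and HLA-E spans 30489509 to 30494194 on the plus strand. The genes of peptide supply are close together, with TAP2 at 32821833 to 32838739, PSMB8 at 32840717 to 32844679 and TAP1 at 32845209 to 32853816 on the minus strand and PSMB9 at 32844136 to 32859851 on the plus strand. TAPBP lies apart from them at 33299694 to 33314284 on the minus strand. The annotated span of PSMB9 runs over TAP1 and part of PSMB8 on the opposite strand, and the strand setting of the counting is not stated, so that reads in the shared stretches cannot be assigned with certainty. TAP2 is overlapped on its own strand by a further protein-coding gene, which has no symbol and is absent from the counts. Reads in that stretch are uncertain too. PSMB8-AS1, an antisense RNA that overlaps TAP1, PSMB8 and PSMB9, had normalized counts of 24.5 and 44.2 in ZNF521 cells under SAG and DMSO and 31.6 and 33.2 in CTL cells under SAG and DMSO, far below its neighbours. The HLA genes resemble one another and differ between people, so that a read can be lost or shared between them when DAOY carries other alleles than the genome.

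The sequences before the starts of the members are shown because factors known to act on several of these genes bind there. The canonical starts of TAP1 and PSMB9, which are read in opposite directions, lie only 488 bases apart. RefSeq windows of GRCh38.p14 were found for 8 of the 9 members, in 10 windows, and the 250 bases before the start are printed for 6 of them, which show the light chain, the heavy chains HLA-B and HLA-C, the TAP1 and PSMB9 pair and tapasin. They lie at chr15:44711267-44711516 on the plus strand for B2M, at chr6:31357180-31357429 on the minus strand for HLA-B, at chr6:31272093-31272342 on the minus strand for HLA-C, at chr6:32853705-32853954 on the minus strand for TAP1, at chr6:32853942-32854191 on the plus strand for PSMB9 and at chr6:33314079-33314328 on the minus strand for TAPBP. Each is given 5′ to 3′ towards its gene. Capitals mark, on either strand, the core of the interferon-stimulated response element (ISRE), which is GAAA, any 2 bases and GAAA again, the NF-kB site GGGATTCCC, and CCAAT, the box bound by NF-Y.
B2M: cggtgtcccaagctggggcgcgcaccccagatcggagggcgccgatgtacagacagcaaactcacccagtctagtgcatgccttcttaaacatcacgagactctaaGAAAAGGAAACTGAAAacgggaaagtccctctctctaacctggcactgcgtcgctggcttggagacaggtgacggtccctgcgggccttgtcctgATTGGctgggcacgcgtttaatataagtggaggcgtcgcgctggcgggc
HLA-B: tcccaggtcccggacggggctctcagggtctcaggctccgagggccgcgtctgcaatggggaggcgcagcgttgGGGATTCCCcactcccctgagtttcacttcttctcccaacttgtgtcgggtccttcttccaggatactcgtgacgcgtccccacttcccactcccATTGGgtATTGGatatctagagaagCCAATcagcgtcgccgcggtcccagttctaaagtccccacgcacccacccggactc
HLA-C: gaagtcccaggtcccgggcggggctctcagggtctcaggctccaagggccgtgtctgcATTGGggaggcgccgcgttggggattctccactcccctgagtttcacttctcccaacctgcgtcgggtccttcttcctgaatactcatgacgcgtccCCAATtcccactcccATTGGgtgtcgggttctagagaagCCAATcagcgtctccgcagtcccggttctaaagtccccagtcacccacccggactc
TAP1: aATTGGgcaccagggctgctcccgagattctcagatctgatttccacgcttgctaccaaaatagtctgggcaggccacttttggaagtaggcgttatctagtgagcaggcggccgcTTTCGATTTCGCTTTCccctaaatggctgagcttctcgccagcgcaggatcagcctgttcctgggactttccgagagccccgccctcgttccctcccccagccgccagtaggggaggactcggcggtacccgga
PSMB9: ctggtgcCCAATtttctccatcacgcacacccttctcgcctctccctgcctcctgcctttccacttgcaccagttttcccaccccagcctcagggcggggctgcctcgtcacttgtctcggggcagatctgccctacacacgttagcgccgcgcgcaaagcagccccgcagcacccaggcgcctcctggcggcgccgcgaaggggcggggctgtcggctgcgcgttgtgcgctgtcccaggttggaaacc
TAPBP: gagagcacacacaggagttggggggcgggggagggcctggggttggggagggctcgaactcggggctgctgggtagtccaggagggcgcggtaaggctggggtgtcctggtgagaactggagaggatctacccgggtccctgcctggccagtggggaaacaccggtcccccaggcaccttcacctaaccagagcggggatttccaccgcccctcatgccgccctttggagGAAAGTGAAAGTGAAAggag
The ISRE core was found in a window of 5 members, against 3.57% of all 35116 windows of 300 bases (250 before and 50 after the start), searched on both strands. In B2M it stood as overlapping copies from -144 to -129, in TAP1 from -134 to -119 and in TAPBP from -20 to -5, while TAP2 had 1 copy from -58 to -49 and PSMB8 1 copy across the start of its second window, from -4 to 6. Only exact matches were counted, so a lack of matches in HLA-B, HLA-C and PSMB9 does not show that they lack an interferon element. The TAP1 copies lie between the starts of TAP1 and PSMB9, but outside the window of PSMB9. HLA-B held GGGATTCCC from -176 to -168, a match that 0.384% of all windows had. CCAAT was found in 5 members (34.6% of all windows) and TGACG, the core of a cyclic AMP response element, in 6 (24.6%), and HLA-B and HLA-C had them at almost the same distances, with TGACG from -106 and from -105 and CCAAT from -56 in both. TTCNNNGAA, a STAT site, was found in 2 members (7.66% of all windows), in the second windows of TAP1 and PSMB8. GACCACCCA, a site of GLI factors, was found in none of the 8 members and in 0.236% of all windows. A match describes these letters in the reference genome and is no measure of binding.

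The libraries held 12294833 to 16314685 counts. ZNF521 itself had normalized counts (raw counts divided by the library's size factor) of 2072 and 2013 in ZNF521 cells under SAG and DMSO, against 751 and 714 in CTL cells under SAG and DMSO. GLI1, the SHH target, had 318.1 in ZNF521 cells and 323.7 in CTL cells with SAG, against 44.2 in ZNF521 cells and 75.4 in CTL cells with DMSO. Both followed their labels, ZNF521 at 1.47 and GLI1 at 2.44 on the log2 scale (edgeR, adjusted p = 0.00357 and 0.00054). ZIC1, ZIC2, EN2 and PAX6 of the cerebellar lineage were read in every library, whereas ATOH1 and BARHL1 had normalized counts of at most 2.06. The other markers of that list were low, MYCN at 13.1 to 40.1 and NEUROD1 at 1.01 to 8.44. None of 8 leukocyte markers reached 10 raw counts in any library, and their summed normalized count was 23.6 and 28.8 in ZNF521 cells under SAG and DMSO, against 28.2 and 42.2 in CTL cells under SAG and DMSO. Of 4 endothelial markers, 3 reached 10 raw counts in a library (PECAM1, CDH5 and VWF). The summed normalized count of all 4 was 68.3 and 74.1 in ZNF521 cells under SAG and DMSO, against 89.1 and 82.4 in CTL cells under SAG and DMSO. None of 3 hepatocyte and 4 erythroid markers reached 10 raw counts. CTL cells with DMSO gave the library that differed most from the others. Over the 9161 tested genes whose normalized counts averaged 200 or more, log2 deviations from the gene means had an SD of 0.126 to 0.143 in the other libraries and of 0.274 in that one. For the 9 members the root mean square of these deviations was 0.122 and 0.124 in ZNF521 cells under SAG and DMSO, against 0.101 and 0.181 in CTL cells under SAG and DMSO.

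Heavy and light chains were among the most abundant transcripts of DAOY cells, and the transporter chain TAP2 was read at a low level. Levels are compared between genes on the scale of TPM, that is, as counts divided by exon length and brought to the same total in every library. B2M had a mean level per length of 2003 over the 4 libraries (1808 to 2158) and ranked 45 of 19803 genes, HLA-C had 1852 (1585 to 2084), HLA-B 1050 (900.5 to 1246) and HLA-E 656 (589 to 714). The ranges of B2M and HLA-C overlapped, as did none of HLA-C, HLA-B and HLA-E. The genes of peptide supply and loading followed, PSMB8 at 194 (182 to 206), TAPBP at 161 (144 to 204), TAP1 at 149 (138 to 163) and PSMB9 at 144 (137 to 159), and the range of TAPBP overlapped each of the others. TAP2 had 6.52 (5.59 to 8.18) and ranked 10591. The level of TAP1 was thus 18.8 to 29.1 times that of TAP2, its partner in the transporter. Whether reads of TAP2 were lost where another gene overlaps it on the same strand was not tested. With the length of the canonical transcript in place of the exon length, a choice made after the lengths were seen, B2M had 3521, HLA-B 1681, HLA-C 1601, HLA-E 399.9 and PSMB9 251.8, so that HLA-B passed HLA-C, and PSMB9 passed TAPBP at 165.

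The immunoproteasome subunits were read at a lower level per length than the standard subunits whose place they take. PSMB8 had 0.235, 0.246, 0.254 and 0.272 times the level of PSMB5 in ZNF521 cells with SAG, ZNF521 cells with DMSO, CTL cells with SAG and CTL cells with DMSO. PSMB9 had 0.149, 0.159, 0.142 and 0.168 times the level of PSMB6 in the same order. PSMB10, the remaining immunoproteasome subunit, had 0.0585, 0.0714, 0.0575 and 0.0728 times the level of PSMB7. CTL cells with DMSO thus had the highest ratio for each of these pairs. The normalized counts of PSMB5, PSMB6 and PSMB7 were 3937 to 4380, 4476 to 4880 and 5613 to 5849 in the other 3 libraries, against 3405, 3726 and 4477 in CTL cells with DMSO, the lowest of each. The canonical transcript length gave ratios of 0.491 to 0.567, 0.265 to 0.314 and 0.0526 to 0.0667.

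**Figure D1:**
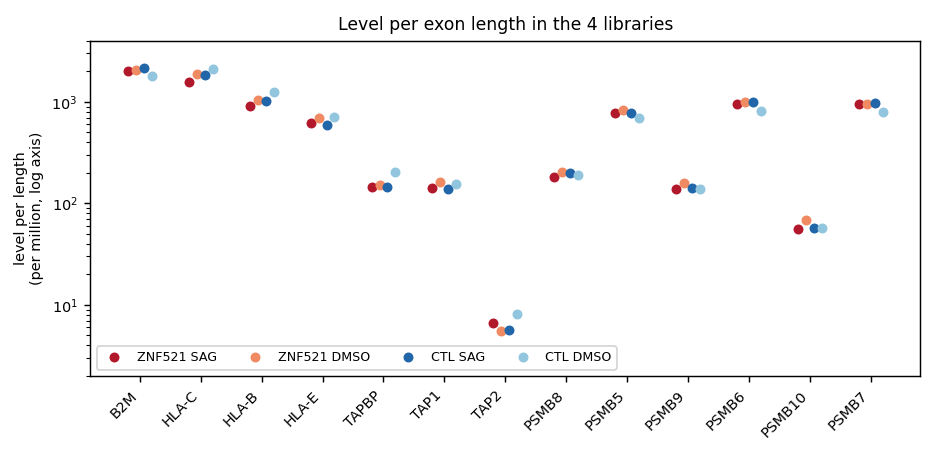
Level per exon length (TPM scale, log axis) of the 9 genes, of PSMB10 and of the standard subunits PSMB5, PSMB6 and PSMB7, with 1 point for each of the 4 libraries. B2M lies between 1808 and 2158 and TAP2 between 5.59 and 8.18, and each immunoproteasome subunit lies below the standard subunit at its right.

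Across the conditions the normalized counts of the heavy chains stayed within a 1.33-fold span. HLA-B had 13667 and 16259 in ZNF521 cells under SAG and DMSO, against 15557 and 18166 in CTL cells under SAG and DMSO. It was lower with SAG in both kinds of cells and lower with ZNF521 in both treatments. In such bulk libraries fewer expressing cells and less RNA per cell cannot be told apart. HLA-C had 13046 and 15950 in ZNF521 cells under SAG and DMSO, against 15468 and 16476 in CTL cells under SAG and DMSO, so that ZNF521 cells with SAG stood lowest and the other 3 libraries lay close together. HLA-E had 5992 and 6870 in ZNF521 cells under SAG and DMSO, against 5717 and 6584 in CTL cells under SAG and DMSO. Here the SAG libraries lay below the DMSO libraries, without overlap, and ZNF521 cells lay slightly above CTL cells in each treatment. For HLA-B and HLA-C, too, both SAG libraries lay below both DMSO libraries. B2M did not follow the heavy chains. It had 20482 and 21570 in ZNF521 cells under SAG and DMSO, against 22367 and 17802 in CTL cells under SAG and DMSO, and CTL cells with DMSO alone stood low. Its level per length relative to the summed levels of HLA-B, HLA-C and HLA-E was 0.643 and 0.565 in ZNF521 cells under SAG and DMSO, against 0.624 and 0.447 in CTL cells under SAG and DMSO.

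TAP1, PSMB8 and PSMB9 were all highest in ZNF521 cells with DMSO. TAP1 had 2199 and 2603 in ZNF521 cells under SAG and DMSO, against 2166 and 2296 in CTL cells under SAG and DMSO. PSMB9, which starts next to TAP1, had 1534 and 1795 in ZNF521 cells under SAG and DMSO, against 1568 and 1442 in CTL cells under SAG and DMSO. PSMB8 had 2081 and 2420 in ZNF521 cells under SAG and DMSO, against 2281 and 2078 in CTL cells under SAG and DMSO. The other 3 libraries differed in order, since CTL cells with DMSO stood lowest for both proteasome subunits and second for TAP1. TAPBP and TAP2 had their highest count in CTL cells with DMSO. TAPBP had 3160 and 3391 in ZNF521 cells under SAG and DMSO, against 3189 and 4275 in CTL cells under SAG and DMSO. The first 3 values thus lay close together and the last apart from them. TAP2 had 226.9 and 195.5 in ZNF521 cells under SAG and DMSO, against 194.0 and 267.4 in CTL cells under SAG and DMSO. Its raw counts, 269, 190, 172 and 266 in the same order, were the lowest of the list and give it the widest counting error. For 5 members, HLA-B, HLA-C, HLA-E, TAP1 and TAPBP, both SAG libraries lay below both DMSO libraries, as for 22.7% of all genes tested. For 0 members did the libraries of ZNF521 cells and CTL cells lie apart in this way, in either direction, where 26.4% of all genes did. The highest count lay in CTL cells with DMSO for 4 members, in ZNF521 cells with DMSO for 4 and in CTL cells with SAG for 1. The ratio of the highest to the lowest library ran from 1.16 for PSMB8 to 1.38 for TAP2, and its median over the 9161 genes was 1.26 (quartiles 1.16 and 1.42).

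**Figure D2:**
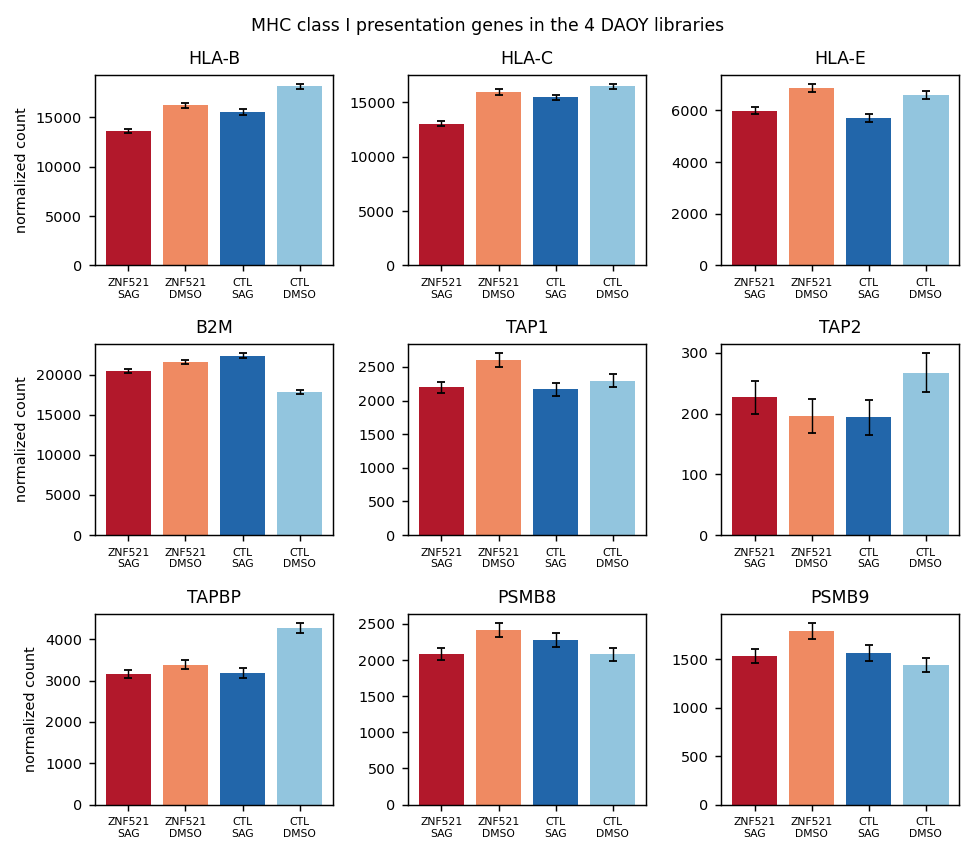
Normalized counts (raw counts divided by the authors' size factors) of the 9 genes, 1 bar per library and no replicates, with error bars of 95% counting intervals. HLA-B, HLA-C and HLA-E are lower in each SAG library than in the DMSO library of the same cells, and TAPBP stands at 4275 in CTL cells with DMSO against 3160 to 3391 elsewhere.

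None of the 9 members passed an adjusted p of 0.05 between ZNF521 and CTL cells. The comparison asks whether these genes differ with overexpression of ZNF521 when the treatment is held as a block. Their log2 fold changes ran from -0.19 for TAPBP to 0.13 for PSMB9, with 5 higher and 4 lower in ZNF521 cells and a median of 0.032, against -0.0034 over all genes tested. Of all genes tested, 0.00668% were called. With an unadjusted p up to 0.05 as the threshold, 0 members were called as well, where 5.48% of all genes were, and DESeq2 and limma called 0 at the adjusted threshold. By role, the classical heavy chains were at -0.18 for HLA-B (standard error 0.174, adjusted p = 0.987 from edgeR) and -0.16 for HLA-C (standard error 0.175, adjusted p = 0.988 from edgeR), and HLA-E was at 0.053. B2M was at 0.064, TAP1 at 0.090, TAP2 at -0.13, PSMB8 at 0.032 and PSMB9 at 0.13. The 95% intervals of the fitted fold ran, over all members, from 0.677 at the lowest for HLA-B to 1.39 at the highest for B2M. Without the CTL library with SAG, a fit on ZNF521 alone put HLA-B at -0.297 and TAPBP at -0.401. Without the CTL library with DMSO, 5 members were higher and 4 lower. B2M then turned to -0.084, PSMB8 to -0.015, TAP2 to 0.13 and TAPBP to 0.044. In each fit with a library left out, an arm is a lone library, so ZNF521 and treatment are partly mixed.

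None of the 9 members passed between SAG and DMSO either, with the kind of cells as a block. Here 8 were lower and 1, B2M, was higher with SAG, with a median log2 fold change of -0.16 against 0.00055 over all genes tested. TAPBP was at -0.26 (standard error 0.156, adjusted p = 0.515 from edgeR), HLA-B at -0.24 (standard error 0.174, adjusted p = 0.600 from edgeR), HLA-E at -0.20 (standard error 0.157) and HLA-C at -0.19 (standard error 0.175). TAP1 was at -0.16, TAP2 at -0.12, PSMB9 at -0.054, PSMB8 at -0.042 and B2M at 0.13 (standard error 0.188, adjusted p = 0.815 from edgeR). Of all genes tested, 0.0401% were called. With an unadjusted p up to 0.05 as the threshold, 0 members were called where 11.3% of all genes were (6.21% higher and 5.12% lower with SAG), and DESeq2 and limma called 0 at the adjusted threshold. The 95% intervals of the fitted fold ran from 0.653 for HLA-B to 1.45 for B2M. Without the ZNF521 library with DMSO, a fit on the treatment alone put TAPBP at -0.440, HLA-B at -0.325 and B2M at 0.257. The DMSO arm of that fit is the CTL library that differed most from the others, so SAG is mixed there with ZNF521. Without the CTL library with DMSO, where the DMSO arm is ZNF521 cells alone, 8 members were lower and 1 higher. TAPBP was then at -0.10, HLA-B at -0.16, HLA-C at -0.17, HLA-E at -0.24 and TAP1 at -0.26, PSMB8 at -0.16 and PSMB9 at -0.22, and B2M turned to -0.016 and TAP2 to 0.11. Both comparisons use the same 4 libraries.

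**Figure D3:**
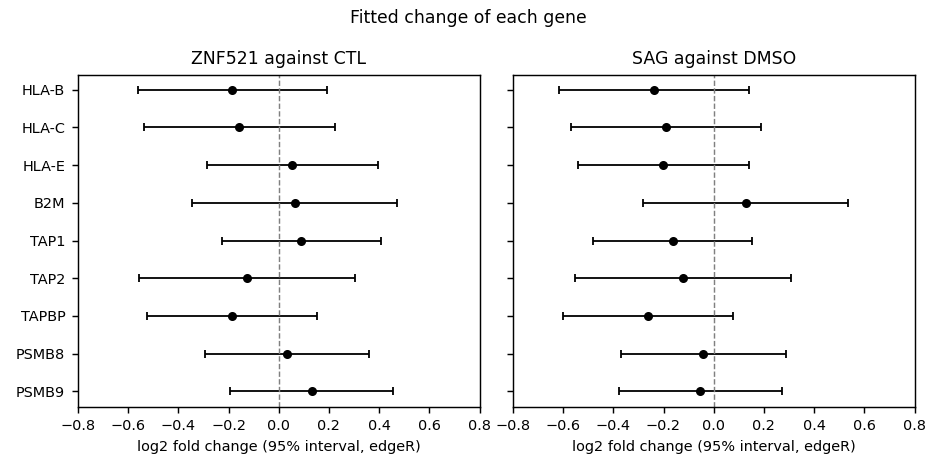
Log2 fold change of each gene with its 95% interval from edgeR, for ZNF521 against CTL cells (left) and SAG against DMSO (right). Every interval holds 0, and with SAG only B2M lies above 0, at 0.13.

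The fold changes of all genes moved with the GC content of their transcripts, and most of the members lie on 1 side of it. Transcripts of 8 of the 9 members had a GC content above the median of all genes tested, 48.8%, from 48.9% in TAP2 to 60.1% in HLA-C, and B2M was the exception at 39.1%. All genes tested were ranked by GC content and cut into 5 equal classes. In class 5, of highest GC content, which holds HLA-B and HLA-C, the median log2 fold change with SAG was -0.24. It was -0.12 in class 4, with HLA-E, TAP1, TAPBP, PSMB8 and PSMB9, 0.0027 in class 3, with TAP2, and 0.26 in class 1, with B2M. For ZNF521 the medians of classes 5, 4, 3 and 1 were -0.089, -0.057, -0.030 and 0.13. When the trend with GC content was taken off within each library, the median of the members for SAG was -0.057. HLA-B was then at -0.057, HLA-C at -0.010, TAP1 at -0.0064, TAPBP at -0.10 and HLA-E at -0.084. TAP2 stayed at -0.13. B2M turned to -0.10, PSMB8 to 0.075 and PSMB9 to 0.027, and none passed. For ZNF521 the same step left HLA-B at -0.13, HLA-C at -0.10 and PSMB9 at 0.18 and turned B2M to -0.033.

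**Figure D4:**
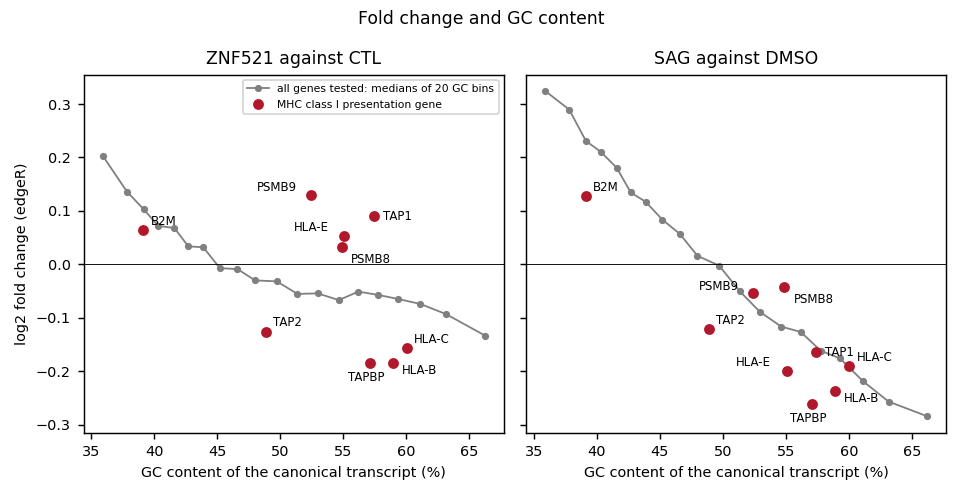
Log2 fold change from edgeR against the GC content of the canonical transcript, for ZNF521 against CTL cells (left) and SAG against DMSO (right), with the 9 genes in red and the medians of 20 GC bins of all genes tested in grey. With SAG the grey line falls with GC content. B2M (39.1% GC, 0.13) lies on its low-GC side, where the line is at 0.23, and HLA-C (60.1% GC, -0.19) on its high-GC side.

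The pairs of libraries behind these fits show where the members differed. Ratios of normalized counts are given with exact 95% intervals (Clopper-Pearson), which cover counting error only, and no pair has a replicate check. HLA-B had a ZNF521 to CTL ratio of 0.879 in SAG (0.859 to 0.899) and 0.895 in DMSO (0.876 to 0.914), and HLA-E had 1.05 in SAG (1.01 to 1.09) and 1.04 in DMSO (1.01 to 1.08), so that both kept their direction. HLA-C was below 1 in both, at 0.843 in SAG (0.824 to 0.863) and 0.968 in DMSO (0.947 to 0.990), and TAP1 was above 1 in both, at 1.01 in SAG (0.956 to 1.08) and 1.13 in DMSO (1.07 to 1.20). B2M had 0.916 in SAG (0.899 to 0.933) and 1.21 in DMSO (1.19 to 1.24), on opposite sides of 1. The immunoproteasome subunits had ratios above 1 only in DMSO, 1.16 for PSMB8 (1.10 to 1.24) and 1.24 for PSMB9 (1.16 to 1.34), against 0.912 (0.860 to 0.968) and 0.979 (0.912 to 1.05) in SAG. TAPBP had 0.991 in SAG (0.944 to 1.04) and 0.793 in DMSO (0.758 to 0.830), and TAP2 1.17 in SAG (0.963 to 1.43) and 0.731 in DMSO (0.604 to 0.884). In DMSO, where the CTL library stands apart, 5 members were higher and 4 lower in ZNF521 cells, where 52.6% of all genes tested were higher. All 9 intervals left out 1, as did those of 46.2% of all genes tested and of 61% of the 9161 genes of higher count. In SAG 3 members were higher and 6 lower, where 49.4% of all genes tested were higher. Here 4 of the 9 intervals held 1 and 5 left it out, as did those of 19.7% of all genes tested and of 26% of the genes of higher count. The intervals narrow with the count, and the members other than TAP2 are read deeply.

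In ZNF521 cells most members had a similar ratio of SAG to DMSO, below 1. The SAG to DMSO ratio there was 0.841 for HLA-B (0.822 to 0.859), 0.818 for HLA-C (0.800 to 0.836), 0.872 for HLA-E (0.843 to 0.902), 0.845 for TAP1 (0.799 to 0.892), 0.860 for PSMB8 (0.812 to 0.910) and 0.855 for PSMB9 (0.800 to 0.913). It was nearer to 1 for TAPBP, 0.932 (0.889 to 0.977), and B2M, 0.950 (0.932 to 0.967), and above 1 for TAP2 alone, at 1.16 (0.960 to 1.41). In all, 8 of the 9 members were lower, with a median log2 ratio of -0.22, where 51.3% of all genes tested were higher and their median was 0.0069. In CTL cells the ratios were spread out. They were 0.856 for HLA-B (0.838 to 0.876), 0.939 for HLA-C (0.918 to 0.960), 0.868 for HLA-E (0.837 to 0.901), 0.746 for TAPBP (0.711 to 0.783) and 0.725 for TAP2 (0.595 to 0.882). TAP1 was at 0.944 (0.888 to 1.003), and B2M, PSMB8 and PSMB9 were above 1, at 1.26 (1.23 to 1.28), 1.10 (1.03 to 1.17) and 1.09 (1.01 to 1.17). The median log2 ratio was -0.091 over the members and 0.0093 over all genes tested.

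**Figure D5:**
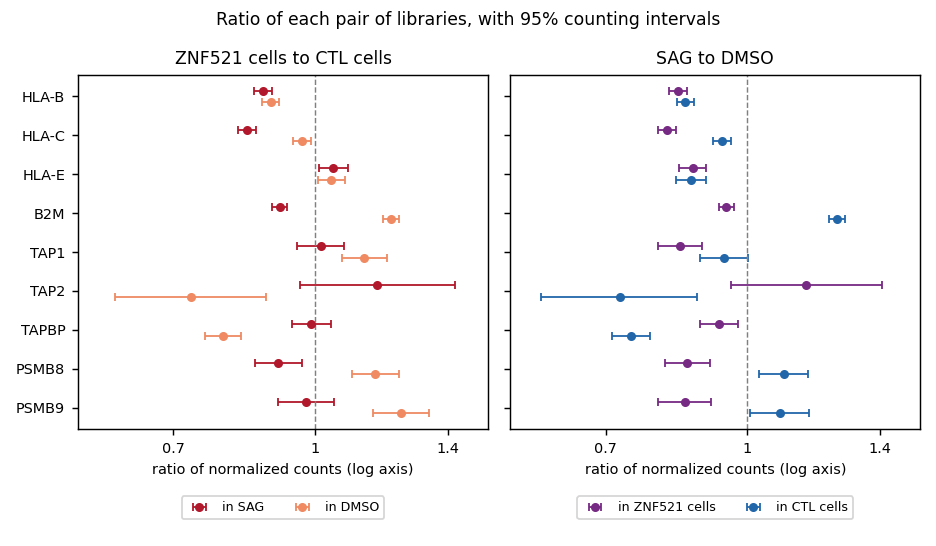
Ratio of normalized counts in each pair of libraries (log axis) with exact 95% counting intervals, for ZNF521 to CTL cells in SAG and in DMSO (left) and for SAG to DMSO in ZNF521 and in CTL cells (right). In ZNF521 cells all points but that of TAP2 (1.16) lie below 1 with SAG, and in CTL cells they run from 0.725 to 1.26.

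Of 16 tested genes among 17 others of class I peptide supply and loading, none passed the adjusted threshold in either comparison. For ZNF521, 9 were higher and 7 lower, with a median of 0.037, and 0 had an unadjusted p up to 0.05. NPEPPS, a cytosolic aminopeptidase, was at -0.35 (adjusted p = 0.924 from edgeR), HLA-F, a non-classical heavy chain, at -0.33, and TPP2, a large cytosolic peptidase, at 0.22. NPEPPS had normalized counts of 1347 and 1224 in ZNF521 cells under SAG and DMSO, against 1383 and 1902 in CTL cells under SAG and DMSO. HLA-F had normalized counts of 415.1 and 550.5 in ZNF521 cells under SAG and DMSO, against 593.2 and 601.1 in CTL cells under SAG and DMSO, and was thus low in ZNF521 cells with SAG. For SAG 6 of the 16 were higher and 10 lower, with a median of -0.052, and 1 had an unadjusted p up to 0.05, TPP2 at 0.40 (adjusted p = 0.397 from edgeR). POMP, a chaperone of proteasome assembly, was at 0.32, and TAPBPL, a relative of tapasin that edits peptides, at -0.33. Without the CTL library with DMSO, 9 of the 16 were higher and 7 lower for SAG, with a median of 0.044. The standard catalytic subunits PSMB5, PSMB6 and PSMB7 were at 0.16, 0.13 and 0.15 for ZNF521 and at 0.039, 0.12 and 0.17 for SAG. Of 11 further subunits of the proteasome core, 9 were higher for ZNF521, with a median of 0.097, and 10 for SAG, with a median of 0.19. PSMA6 (0.42) for ZNF521 and PSMA3 (0.56) and PSMA2 (0.65) for SAG had an unadjusted p up to 0.05, and none passed the adjusted threshold. PSMB2 was at -0.12 and PSMA1 at -0.093 for ZNF521, and PSMA4 was at 0.30 for SAG. Without the CTL library with DMSO, 1 of the 11 was higher and 10 lower for ZNF521, and 5 were higher and 6 lower for SAG. The direction of these subunits thus rests on the CTL library with DMSO.

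Among 22 regulators of class I transcription none passed, with 12 higher and 10 lower in each comparison. NLRC5 was the member of this list of smallest unadjusted p for SAG, at -0.38 on the log2 scale (unadjusted p = 0.0281 and adjusted p = 0.402 from edgeR, standard error 0.154), and it was at -0.23 for ZNF521. Its normalized count was 487.6 and 627.7 in ZNF521 cells under SAG and DMSO, against 559.3 and 737.8 in CTL cells under SAG and DMSO, which is lower with SAG in both kinds of cells and lower with ZNF521 in both treatments. IRF1, a transcription factor induced by interferon, had 1066 and 1204 in ZNF521 cells under SAG and DMSO, against 1206 and 1303 in CTL cells under SAG and DMSO, with log2 fold changes of -0.16 for ZNF521 and -0.14 for SAG. NFYA, a subunit of NF-Y, was at -0.49 for ZNF521 (unadjusted p = 0.0244 from edgeR) and CREB1, which binds cyclic AMP response elements, at 0.35 for SAG (unadjusted p = 0.0432 from edgeR). NFYA had 390.6 and 367.3 in ZNF521 cells under SAG and DMSO, against 420.6 and 658.4 in CTL cells under SAG and DMSO. RFXAP, a subunit of the RFX complex, was at -0.51 for ZNF521 and -0.50 for SAG. It had 81.8 and 86.4 in ZNF521 cells under SAG and DMSO, against 85.7 and 159.8 in CTL cells under SAG and DMSO. CTL cells with DMSO alone thus stood apart.

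Most genes that interferons induce were higher in ZNF521 cells, 25 of the 26 tested, with a median log2 fold change of 0.33, and an unadjusted p up to 0.05 was reached by 11 that were higher and 1 that was lower (CXCL9, at 3.37 to 17.1 normalized counts), where 2.36% and 3.11% of all genes were. None passed the adjusted threshold in the main fit of all 4 libraries. IFIT1, an antiviral protein that binds foreign RNA, was at 0.63 (adjusted p = 0.689 from edgeR), MX2, an antiviral GTPase, at 0.48 and IFI44L at 0.51. IFIT1 had normalized counts of 5659 and 7007 in ZNF521 cells under SAG and DMSO, against 4541 and 3604 in CTL cells under SAG and DMSO. For SAG 11 were higher and 15 lower, with a median of -0.039, and ISG20 was at -0.34, IFI6 at -0.27 and OAS3 at -0.27. Without the CTL library with DMSO, 20 of the 26 were higher and 6 lower for ZNF521. IFI6 was then at 0.61, ISG15 at 0.48 and MX1 at 0.47. The CTL arm of that fit is a lone library, so only effect sizes are given for it. The fit for SAG without the CTL library with DMSO had 2 higher and 24 lower, with a median of -0.26. In it ISG15, a ubiquitin-like protein, was at -0.55. The DMSO arm of that fit is ZNF521 cells alone, so SAG is mixed there with ZNF521. Between pairs of libraries, ISG15 was at -0.43 for SAG in ZNF521 cells and at 0.021 in CTL cells. The genes named from this list were picked after their values were seen. The difference between the interferon and class I lists was not tested.

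Class I-like and class II genes likewise had no gene past the adjusted threshold. Of 11 class I-like molecules 6 were higher for ZNF521 and 5 for SAG, with medians of 0.0014 and -0.033, and FCGRT, the neonatal Fc receptor, was at 0.17 and -0.20. HFE, a regulator of iron uptake, was at -0.16 and -0.15, and ULBP3, a ligand of the NKG2D receptor, at 0.064 and 0.15. Of 11 tested genes of class II presentation 7 were lower for ZNF521 and 8 for SAG, with medians of -0.20 and -0.083. HLA-DMB, a chain of the editor of class II peptides, was at 0.75 for ZNF521 (adjusted p = 0.679 from edgeR), with normalized counts of 168.7 and 231.5 in ZNF521 cells under SAG and DMSO, against 115.0 and 118.6 in CTL cells under SAG and DMSO, so that the kinds of cells did not overlap. HLA-DMB was at -0.27 for SAG. CD74, the invariant chain, was at -0.44 for ZNF521 and -0.45 for SAG. CIITA, the co-activator of class II genes, was at -0.55 and -0.60, and its normalized count was 48.9 and 62.8 in ZNF521 cells under SAG and DMSO, against 59.8 and 105.5 in CTL cells under SAG and DMSO.

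The mean profile of the 9 members was nearly flat, at -0.087 and 0.067 in ZNF521 cells under SAG and DMSO and -0.040 and 0.060 in CTL cells under SAG and DMSO, as log2 deviations from the mean. The genes nearest to it over the 4 libraries were PIAS4, a SUMO ligase, LMNA, which encodes lamins A and C, and ERF, a repressor of the ETS family, with Euclidean distances of 0.0081, 0.012 and 0.013 on the log2 scale. Of 9069 genes outside the lists whose normalized counts averaged 200 or more, 733 lay at least as near to this profile as HLA-E, the nearest member at 0.116, and TAP2, the farthest, lay at 0.377.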

How the data were processed

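RNA-seq was run on 4 libraries of DAOY cells, which the labels describe as strand-specific, poly-A-enriched and depleted of ribosomal RNA. The authors aligned paired reads to hg38 with STAR (2.7.0e in the submitters' processing notes) and deposited raw counts of 20363 genes. They also deposited signal values of 19860 genes, which are these counts divided by size factors, computed with DESeq2 (median of ratios). The factors run from 0.887 to 1.19. Annotation, strand setting and read filters are not given in the sources used here. STAR counts for similar or overlapping genes depend on them.

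Genes that reached 10 counts in 2 or more libraries were kept and tested with edgeR 4.0.16 in R 4.3.3 (TMM, glmQLFit, glmQLFTest), with ZNF521 and treatment as additive terms and Benjamini-Hochberg adjustment over 14970 genes. This leaves 1 residual degree of freedom, moderated by a prior of 11.7. That residual is the difference of the SAG response between ZNF521 and CTL cells. P values thus set a change against this difference, moderated over genes. They do not measure a spread between separate cultures, and none are stated. The study's paired test was not used here. Alternatives were RLE factors, library size alone, no filter, a minimum mean count of 50, DESeq2 1.42.0, limma-trend 3.58.1 on log2(normalized count + 1), no block, GC-centred offsets in 20 bins and each library left out in turn. Lengths and GC content came from GENCODE for hg38. Ratios, intervals and motifs were computed in Python 3.11.15 with scipy 1.17.1. The edgeR step was tested on simulated data.

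The members and gene lists were chosen with earlier results of these data known. Named were all members, ZNF521 and GLI1, NLRC5, IRF1 and the standard catalytic subunits, from each other list any gene past the adjusted threshold and up to 3 of smallest unadjusted p per comparison whose normalized counts average 50 or more and which have 1 direction in both pairs, and the 3 genes nearest to the mean profile. PSMB10, PSMB8-AS1, CXCL9, ISG15, MX1 and the cell type markers were named outside the rule. Lengths of canonical transcripts, list counts without the CTL library with DMSO, shares of counting intervals over all genes and the 9-letter NF-kB site were chosen after seeing the data.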

Additional observations from a re-analysis of the deposited data

Results flagged for a closer look

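For 4 members SAG went opposite ways in ZNF521 and in CTL cells. With 1 library per condition the difference was not tested, and the intervals cover counting error only. The same difference is the residual that the additive fits take as error. For TAP2 the log2 ratio of SAG to DMSO was 0.22 in ZNF521 cells and -0.46 in CTL cells, a difference of 0.68 (95% interval 0.29 to 1.06). For B2M it was -0.075 in ZNF521 cells and 0.33 in CTL cells, a difference of -0.40 (-0.44 to -0.36). For PSMB8 it was -0.22 and 0.13, a difference of -0.35 (-0.47 to -0.23), and for PSMB9 it was -0.23 and 0.12, a difference of -0.35 (-0.49 to -0.20). Read the other way, ZNF521 went opposite ways in SAG and in DMSO for the same 4 members, with the same differences, since they rest on the same 4 libraries. Not every direction stood beyond counting error. The interval of the ratio held 1 for TAP2 with SAG in ZNF521 cells. It also held 1 for TAP2 and PSMB9 between ZNF521 and CTL cells in SAG. CTL cells with DMSO, the library that stood apart, enter every one of these differences, and its part in them was not tested.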

How the results depend on the processing

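No member passed an adjusted p of 0.05 under any of the 8 alternatives that keep all 4 libraries, where the lowest adjusted p of a member was 0.976 for ZNF521 and 0.456 for SAG. Of 108 member values per comparison under all 12 alternatives, 97 for ZNF521 and 97 for SAG kept their direction and did not pass the threshold. With 1 library left out and the factor alone, 0 to 2 members passed for ZNF521 and 0 to 3 for SAG. In each comparison members passed only in the fit that called the most genes among those with a library left out. Their passing is thus not read as a difference of these genes. These fits leave 1 arm with a lone library, which is assumed to vary like the other arm. That arm holds a single treatment and kind of cells, so ZNF521 and treatment are partly mixed in these fits. Over them the log2 fold change for ZNF521 was -0.084 to 0.223 for B2M, -0.35 to 0.13 for TAP2, -0.40 to 0.044 for TAPBP, -0.070 to 0.134 for PSMB8, -0.051 to 0.175 for HLA-E and -0.025 to 0.205 for TAP1. For SAG it was -0.016 to 0.257 for B2M, -0.35 to 0.11 for TAP2, -0.157 to 0.058 for PSMB8, -0.217 to 0.093 for PSMB9, -0.44 to -0.10 for TAPBP, -0.334 to -0.148 for HLA-B, -0.314 to -0.070 for HLA-C, -0.236 to -0.167 for HLA-E and -0.260 to -0.083 for TAP1. GC-centred offsets turned B2M for ZNF521 (-0.033) and B2M (-0.10), PSMB8 (0.075) and PSMB9 (0.027) for SAG, and with them the median of the members for ZNF521 was -0.033. The cause was not tested.

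Genes past the adjusted threshold, 1 for ZNF521 and 6 for SAG, numbered 100 and 223 with no filter on low counts, 68 and 196 by limma, 10 and 15 with GC-centred offsets, and 0 to 2340 and 0 to 4513 with 1 library left out. Without a block there were 0 for SAG. With an unadjusted p up to 0.05 the counts of 820 and 1697 became 167 and 424 by DESeq2 and 120 to 4141 and 305 to 6061 with 1 library left out, 1259 for ZNF521 with no filter, 444 for ZNF521 without a block and 823 for SAG with GC-centred offsets. The main fit already pairs libraries by the other factor, and the labels give no replicate numbers to pair by. Scaling by TMM or by plain library size moved a member's count by at most 0.034 on the log2 scale. With single libraries, differences of the size seen here were not distinguishable from the error of the additive fit. No replicate gives a spread within a condition.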
